A study of Rattus norvegicus with 18 samples.

Results

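The dystrophin and sarcoglycan complex was followed through 9 of its genes in CD11b/c-sorted cells of the rat knee synovium. The genes were Dmd, Dag1, Sgca, Sgcb, Sgcd, Sgce, Sspn, Dtna and Sntb1, taken by symbol from the 30643 genes of the deposited tables. They were chosen by name as parts of the complex, with the OA and sham normalized reads of these libraries already known, so the members count as selected on those levels, which are given as a description without a test. The cells came from male wild type Sprague Dawley rats that had surgery at an age of 12 weeks. In the OA groups the anterior cruciate ligament and the medial meniscotibial ligament were cut through an opened joint, and in the sham groups the joint was opened without cutting either ligament. At 4 weeks after surgery there were 5 OA and 5 sham libraries, each from the pooled synovium of 4 rats. At 12 weeks there were 4 OA and 4 sham libraries, each from a pool of 3 rats. A library therefore averages over several animals, and the time points differ in pool size and in age as well as in time after surgery.

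The complex spans the plasma membrane and ties the actin cytoskeleton to the extracellular matrix. Dystrophin, encoded by Dmd, binds actin inside the cell and dystroglycan at the membrane, and Dag1 encodes both subunits of dystroglycan, the outer of which binds laminins and related ligands through its sugar chains. The sarcoglycans and sarcospan form a subcomplex beside dystroglycan, while dystrobrevin and the syntrophins dock signalling proteins below it. The complex is best known from striated muscle, where loss of dystrophin or of a sarcoglycan causes muscular dystrophy. Smooth muscle, vessels and other cells carry versions of it, with epsilon-sarcoglycan (Sgce) in many tissues outside muscle and alpha-sarcoglycan (Sgca) mainly in striated muscle.

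Sgcd, which encodes delta-sarcoglycan, was the only one of the 9 genes whose OA and sham libraries did not overlap, and this was at 12 weeks. Of all 14666 genes tested at 12 weeks 6.29% did not overlap, and nothing is read from the count. The 250 bases before the start of Sgcd in RefSeq (GRCr8 assembly, chr10:32254941-32255190, minus strand) are shown because its groups did not overlap. The same stretch of Sgcb (chr14:34917413-34917662, plus strand), whose product beta-sarcoglycan assembles with delta-sarcoglycan, is set beside it because its OA and sham levels overlapped. Both read 5′ to 3′ toward the start, and capitals mark the E-box letters CANNTG, which read the same on both strands.
Sgcd: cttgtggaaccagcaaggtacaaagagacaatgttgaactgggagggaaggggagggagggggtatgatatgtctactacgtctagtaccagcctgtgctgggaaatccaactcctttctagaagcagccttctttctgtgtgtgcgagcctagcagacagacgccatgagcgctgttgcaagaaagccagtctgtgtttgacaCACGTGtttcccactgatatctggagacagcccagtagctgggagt
Sgcb: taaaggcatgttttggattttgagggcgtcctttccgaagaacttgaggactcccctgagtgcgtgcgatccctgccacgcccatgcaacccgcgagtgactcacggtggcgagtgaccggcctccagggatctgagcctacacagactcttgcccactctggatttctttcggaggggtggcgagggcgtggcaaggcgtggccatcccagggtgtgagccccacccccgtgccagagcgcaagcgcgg
The Sgcd window holds 1 E-box and the Sgcb window holds 0, while 65.5% of 33469 RefSeq windows of this length hold at least 1. The Sgcd window has a GC content of 51.6% and a ratio of observed to expected CpG of 0.31. The Sgcb window has a GC content of 62.8% and a CpG ratio of 0.73. Neither window holds the GC box GGGCGG, which is in 30.5% of all windows on either strand. These are descriptions of letters, and nothing measured here bears on binding at these stretches.

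All 9 genes were read in all 18 libraries and passed the filter of a mean of 10 normalized reads at both time points. Normalized reads are reads per gene divided by the size factor of the library, set within each time point, so levels are compared between OA and sham at 1 time point. Libraries held 4662344 to 18080503 reads, and the shallowest was sham replicate 3 at 4 weeks. Of the 9 genes, Dtna was read least, with 14 to 55 reads per library, whereas a level of 3 reads, taken as the floor, corresponded to 2.06 to 6.96 normalized reads at 4 weeks and 2.27 to 3.82 at 12 weeks. The SDs measure the spread between pools of rats, and no gene of the complex is compared with another by level because transcript lengths were not used.

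The sorted cells carried macrophage markers together with markers of other cell types. All 14 macrophage markers looked up, such as Csf1r and Cd68, were read, and their summed level was 147234 to 178145 normalized reads in OA and 152045 to 155607 in sham at 4 weeks. At 12 weeks it was 196438 to 233422 in OA and 162357 to 230938 in sham. Fibroblast markers (13 of 14 in the tables) summed to 77604 to 118695 in OA and 51498 to 118392 in sham at 4 weeks, and to 91131 to 117049 in OA and 61640 to 93848 in sham at 12 weeks. Smooth muscle and pericyte markers (14 of 14) overlapped between OA and sham at both time points, at 19247 to 29940 over the 18 libraries. No marker of these lists was at 0 in every library of a group. A smaller share of cells of a type and less RNA per cell cannot be told apart in these libraries.

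**Figure D1:**
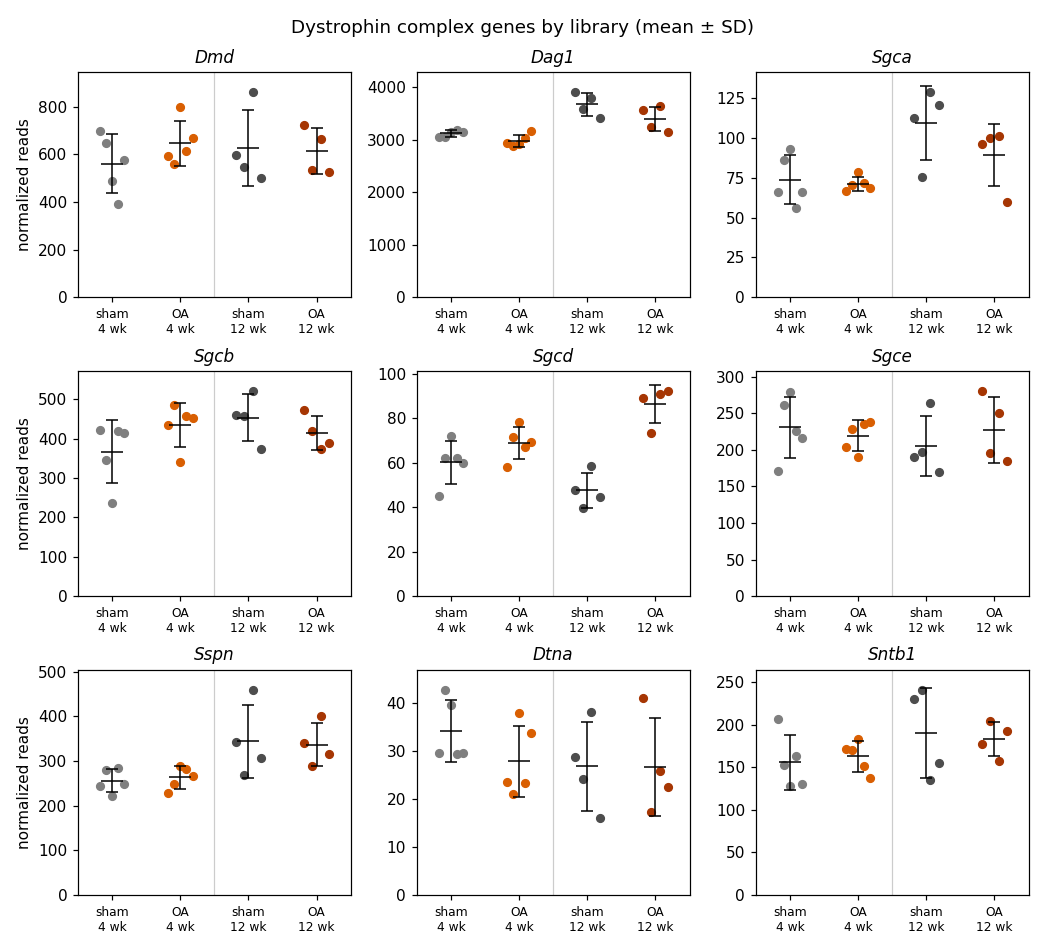
Normalized reads of the 9 genes (vertical axes, linear, from 0) in each library of the 4 groups (points), with the mean and SD of each group (bars); levels at 4 and 12 weeks were scaled separately. Only the Sgcd panel shows groups that do not overlap, with the 4 OA libraries at 12 weeks between 73.5 and 92.2 and the 4 sham libraries between 39.5 and 58.5. Of all genes tested at 12 weeks 6.29% did not overlap.

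Delta-sarcoglycan was higher in OA at 12 weeks than in sham. At 12 weeks the 4 OA libraries held 89.0, 73.5, 91.2 and 92.2 normalized reads of Sgcd, and the 4 sham libraries held 47.6, 39.5, 58.5 and 44.8. Every OA library lay above every sham library. The OA mean was 86.5 ± 8.74 and the sham mean 47.6 ± 8.0 (SD, n = 4 each), a ratio of 1.82, and the log2 difference was 0.86 (SE 0.15). Leaving out each library in turn gave 0.77 to 0.96, from which nothing is read because these levels were known when the genes were chosen. The lowest OA library and the highest sham library, sham replicate 3, were the nearest to each other. Of all 14666 genes tested at 12 weeks, 2.85% had OA libraries wholly above sham and 6.29% did not overlap in either direction. At 4 weeks these shares were 1.18% and 1.87%. Nothing is read from this count, since Sgcd was chosen with it known.

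At 4 weeks Sgcd overlapped between the groups. The 5 OA libraries held 58.2, 71.5, 78.3, 67.3 and 69.4 normalized reads, and the 5 sham libraries held 45.1, 62.0, 72.0, 62.1 and 59.8. The OA mean was 68.9 ± 7.27 and the sham mean 60.2 ± 9.65 (SD, n = 5 each), a log2 difference of 0.20 (SE 0.14). The difference between the time points in the OA to sham log2 difference was 0.67 (SE 0.21) for Sgcd. It was computed on log2 CPM of all 18 libraries, which are recovered reads scaled by library totals that were adjusted with TMM factors. In limma no gene of 14732 was called for that difference (0%), with 469 at an unadjusted p under 0.05, and edgeR and DESeq2 called 0, with 513 and 575 at an unadjusted p under 0.05.

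Marker lists of skeletal muscle, fibroblasts and smooth muscle and pericytes were set beside Sgcd. The 20 skeletal muscle markers in the tables, of 25 looked up, summed to 2285 to 3437 normalized reads in OA and 1942 to 2110 in sham at 12 weeks, without overlap. At 4 weeks they summed to 894 to 1268 in OA and 901 to 2052 in sham. Per 1000 reads of the skeletal muscle markers, Sgcd was at 26.5 to 38.9 in OA and 19.7 to 30.1 in sham at 12 weeks, which overlap. Per 1000 reads of the fibroblast markers it was at 0.760 to 1.01 in OA and 0.622 to 0.772 in sham, which overlap in a narrow range. Per 1000 reads of the smooth muscle and pericyte markers it was at 3.56 to 4.79 in OA and 1.67 to 2.17 in sham, without overlap. At 12 weeks 16 of 19 skeletal muscle markers tested were higher in OA, with a median log2 difference of 0.44. For fibroblasts 11 of 12 were higher (median 0.51), and for smooth muscle and pericytes 3 of 14 (median -0.19). In that order, 8, 11 and 4 had an unadjusted p under 0.05 in limma, without a call. At 4 weeks 4 of 17, 10 of 12 and 2 of 14 were higher in OA, with medians of -0.17, 0.39 and -0.21. The Sgcd ratios reuse the Sgcd levels known when the genes were chosen, so nothing is read from whether they overlap. The part of these cell types in the Sgcd level was not tested.

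The ratios of Sgcd to Sgcb and to Sgce reuse the Sgcd levels known when the genes were chosen, so they are only a description. At 12 weeks both were higher in OA, without overlap. The share of other gene ratios without overlap was not computed, so nothing is read from this. The ratio of Sgcd to Sgcb reads was 0.176 to 0.244 in the OA libraries and 0.0863 to 0.120 in the sham libraries. The ratio of Sgcd to Sgce was 0.318 to 0.5 in OA and 0.201 to 0.264 in sham. At 4 weeks the Sgcd to Sgcb ratio overlapped, at 0.134 to 0.230 in OA and 0.107 to 0.304 in sham, where the highest value came from the shallowest library. The Sgcd to Sgce ratio at 4 weeks was 0.285 to 0.412 in OA and 0.237 to 0.277 in sham, without overlap.

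**Figure D2:**
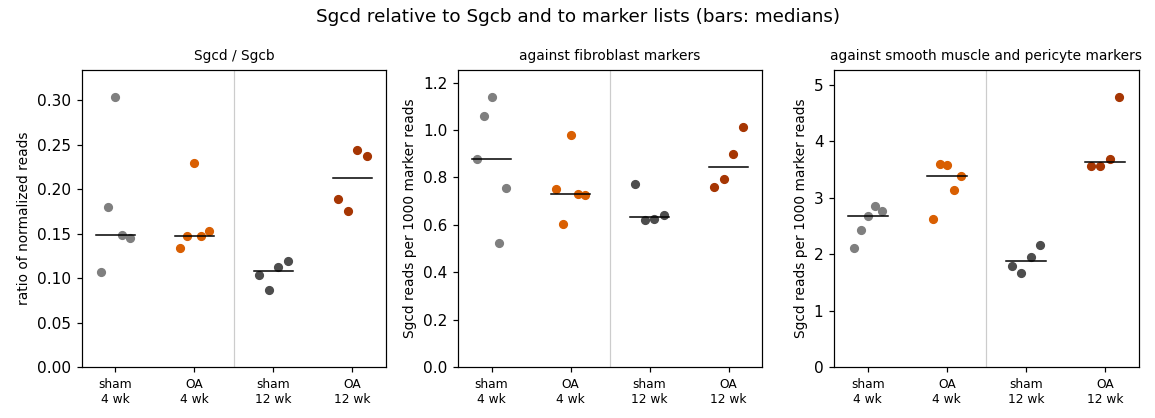
Sgcd normalized reads per read of Sgcb (left) and per 1000 summed reads of the fibroblast (middle) and smooth muscle and pericyte markers (right) in each library (points), with the median of each group (bars); all axes are linear and start at 0. At 12 weeks OA lies above sham without overlap in the left and right panels, and the groups overlap between 0.760 and 0.772 in the middle panel.

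The other sarcoglycan genes, Sgcb, Sgca and Sgce, overlapped between OA and sham at both time points. Sgcb held 472.1, 418.7, 373.2 and 389.3 normalized reads in the OA libraries at 12 weeks and 459.4, 458.1, 520.2 and 374.6 in sham. The sham libraries spanned the OA range apart from its lowest value, and the log2 difference was -0.13 (SE 0.11). At 4 weeks Sgcb held 340.6 to 485.0 in OA and 236.7 to 420.8 in sham, a log2 difference of 0.26 (SE 0.16) in the opposite direction, with the shallowest library lowest. Sgca held 96.0, 100.1, 100.8 and 60.1 in OA and 112.6, 75.6, 128.5 and 120.7 in sham at 12 weeks, a log2 difference of -0.29 (SE 0.21). At 4 weeks its means were 71.0 ± 4.49 in OA and 73.6 ± 15.3 in sham (SD, n = 5 each). In RefSeq the Sgca locus overlaps that of the fibrillar collagen gene Col1a1, and whether counting used strand is not given in the sources used here, so reads of the pair may not be told apart. Sgce held 184.5 to 280.1 in OA and 170.1 to 264.6 in sham at 12 weeks (log2 difference 0.14, SE 0.17), and 190.2 to 237.5 in OA and 171.3 to 278.5 in sham at 4 weeks (-0.06, SE 0.13).

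Sarcospan, the tetraspanin-like protein of the sarcoglycan subcomplex, overlapped between OA and sham at both time points. Sspn held 288.0 to 401.1 normalized reads in OA and 269.0 to 459.2 in sham at 12 weeks. At 4 weeks it held 229.5 to 289.8 in OA and 222.8 to 284.8 in sham. The log2 differences were -0.02 (SE 0.16) at 12 weeks and 0.04 (SE 0.10) at 4 weeks.

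Dystrophin and dystroglycan form the core of the complex, and both overlapped between OA and sham. Dmd held 724.3, 536.2, 662.8 and 527.6 normalized reads in OA and 597.7, 546.6, 859.8 and 501.0 in sham at 12 weeks, with the highest value in sham replicate 3 and a log2 difference of -0.01 (SE 0.17). At 4 weeks it held 559.3 to 799.4 in OA and 392.6 to 697.1 in sham, a log2 difference of 0.22 (SE 0.15). Dag1 varied least of the 9 genes relative to its mean in every group. At 4 weeks it held 2932, 2874, 2911, 3033 and 3157 in OA and 3055, 3054, 3145, 3184 and 3156 in sham, so 4 OA libraries lay below every sham library and 1 did not. Its log2 difference was -0.07 (SE 0.06) at 4 weeks and -0.11 (SE 0.07) at 12 weeks, where OA held 3155 to 3633 and sham 3410 to 3901.

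Dtna and Sntb1, of the cytoplasmic arm of the complex, overlapped between OA and sham at both time points. Dtna, alpha-dystrobrevin, held 17.4 to 41.0 normalized reads in OA and 16.1 to 38.2 in sham at 12 weeks, with a log2 difference of -0.01 (SE 0.31). At 4 weeks it held 21.0 to 37.8 in OA and 29.3 to 42.7 in sham, a difference of -0.30 (SE 0.21). Sntb1, a syntrophin adaptor, held 157.7 to 204.3 in OA and 134.8 to 240.6 in sham at 12 weeks, and the OA range lay inside the sham range. Its log2 differences were -0.02 (SE 0.19) at 12 weeks and 0.08 (SE 0.14) at 4 weeks.

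**Figure D3:**
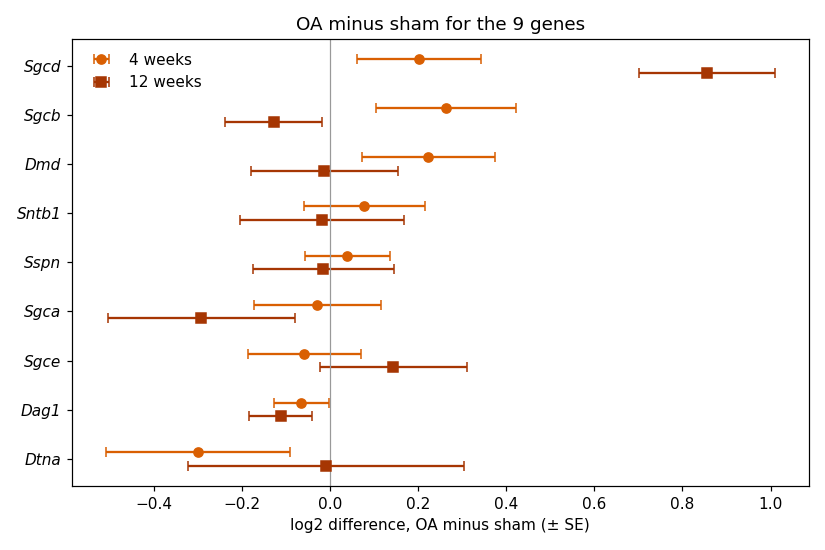
OA minus sham log2 difference of each of the 9 genes (horizontal axis, log2 of normalized reads plus 1) at 4 weeks (circles) and 12 weeks (squares), with bars of 1 SE. Sgcd at 12 weeks, at 0.86, stands away from the other values, which lie between -0.30 and 0.26.

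Across the 9 genes, 5 were higher and 4 lower in OA at 4 weeks, with a median log2 difference of 0.04 beside 0.03 over all genes. At 12 weeks 2 were higher and 7 lower, with a median of -0.02 beside -0.01. Leaving out 1 library took 4 of these 7 across 0, Dmd at -0.11 to 0.15, Dtna at -0.23 to 0.18, Sntb1 at -0.17 to 0.11 and Sspn at -0.12 to 0.13. At 4 weeks it did so for Sgca at -0.12 to 0.06, Sgce at -0.16 to 0.01 and Sspn at -0.01 to 0.09, so these directions are not resolved. In limma none of the 9 was called at either time point, at an adjusted p under 0.05 and a log2 difference of at least 0.5. The same was true of all 14861 genes at 4 weeks (0%, with 1177 or 7.92% at an unadjusted p under 0.05, and 0 calls in edgeR and 31 or 0.209% in DESeq2) and of all 14666 at 12 weeks (0%, with 1814 or 12.4%, and 0 calls in edgeR and 100 or 0.682% in DESeq2). Without sham replicate 3 at 12 weeks limma called 81 genes. Nothing is read from calls of the 9 genes in this comparison, in any of these fits, since its levels chose them.

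The change from 4 to 12 weeks within each surgery uses the same libraries, whose levels were known when the genes were chosen, so it is also given as a description without a test for the 9 genes. It was computed on log2 CPM of all 18 libraries, scaled together. Sgcd was at 3.56 ± 0.56 CPM (SD, n = 4) at 12 weeks and 4.94 ± 0.67 (SD, n = 5) at 4 weeks in sham, a log2 difference of -0.53 (SE 0.15). The sham libraries of both weeks overlapped, at 2.98 to 4.30 CPM at 12 weeks and 3.79 to 5.53 at 4 weeks. Leaving out each library in turn gave -0.63 to -0.44. In OA Sgcd was at 6.47 ± 0.64 CPM (SD, n = 4) at 12 weeks and 5.87 ± 0.64 (SD, n = 5) at 4 weeks, a log2 difference of 0.15 (SE 0.15). The OA libraries of both weeks overlapped as well, at 5.51 to 6.88 CPM at 12 weeks and 4.92 to 6.69 at 4 weeks.

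In limma 0 of the 9 genes were called over time, in sham or in OA, and nothing is read from this count. The background was 207 of 14732 genes (1.41%) in sham and 138 (0.937%) in OA in limma. The share was 1.35% in edgeR and 3.13% in DESeq2 in sham, and 1.07% and 2% in OA. In sham, Dtna differed by -0.56 (SE 0.26), Sgce by -0.37 (SE 0.16) and Sgca by 0.35 (SE 0.18). Dag1 was the steadiest, with a 95% interval of -0.11 to 0.16 in sham and of -0.12 to 0.14 in OA on the log2 scale. In OA the 9 differences lay between -0.26 for Dmd and 0.17 for Sspn.

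Of the 5 other subunits of the complex tested, 0 were called in limma at either time point, where 0 of all genes were called. In limma 0 had an unadjusted p under 0.05 at 4 weeks and 1, Dtnb, did at 12 weeks. At 4 weeks 5 were lower in OA with a median log2 difference of -0.04, and at 12 weeks 4 were lower and 1 higher with a median of -0.11, beside 0.03 and -0.01 over all genes. Utrn, which encodes the dystrophin relative utrophin, held 5814 to 8008 normalized reads in OA and 6314 to 7843 in sham at 4 weeks, and 6585 to 7572 in OA and 6748 to 9239 in sham at 12 weeks. Its log2 differences were -0.04 (SE 0.10) and -0.11 (SE 0.10). Dtnb, beta-dystrobrevin, held 142, 107, 128 and 137 in OA and 181, 199, 122 and 169 in sham at 12 weeks, a log2 difference of -0.37 (SE 0.16, adjusted p = 0.393 in limma). Sham replicate 3 was the only sham library inside the OA range. At 4 weeks Dtnb differed by -0.15 (SE 0.12, adjusted p = 0.750 in limma). Sntg2, a gamma-syntrophin, differed by -0.47 (SE 0.34) at 4 weeks and -0.33 (SE 0.28) at 12 weeks on 8 to 23 reads per library. Without sham replicate 3 at 4 weeks, the shallowest library, the difference of Sntg2 was -0.15, and without OA replicate 4 at 12 weeks it was -0.10. Drp2, a further dystrophin relative, differed by 0.26 (SE 0.26) at 12 weeks, or by 0.02 without OA replicate 3. Sntb2 differed by -0.01 at 4 weeks and -0.08 at 12 weeks. Sntg1 was under 3 reads in every library, and Sgcz was not analysed here. In edgeR and DESeq2, too, 0 of the further genes of the complex described here were called for OA against sham.

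**Figure D4:**
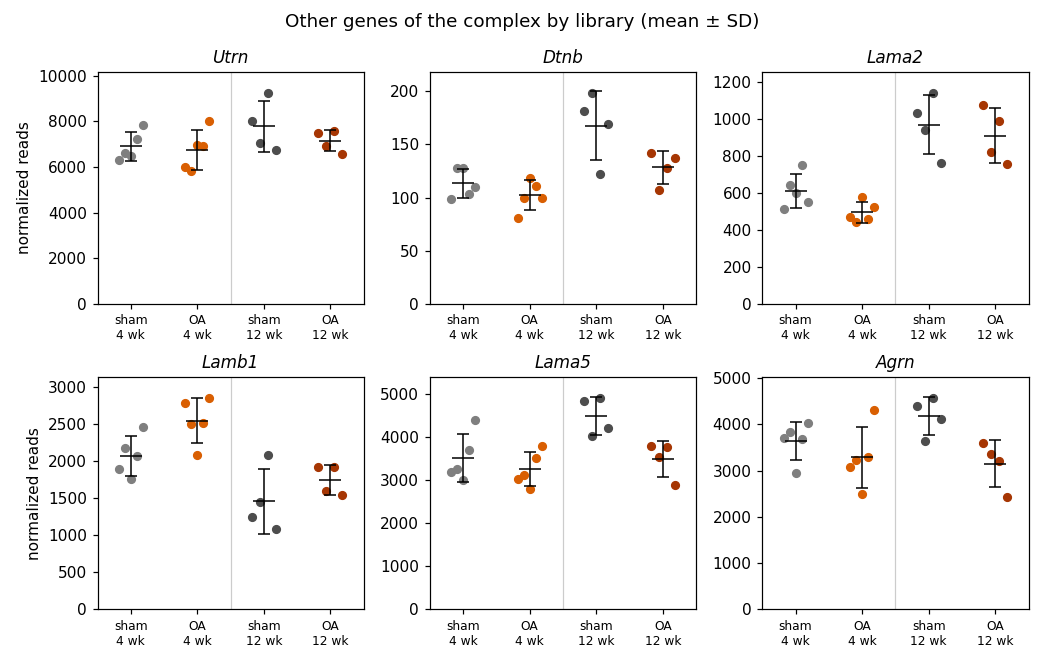
Normalized reads of Utrn, Dtnb, Lama2, Lamb1, Lama5 and Agrn (vertical axes, linear, from 0) in each library of the 4 groups (points), with the mean and SD of each group (bars); levels at 4 and 12 weeks were scaled separately. Lama5 and Agrn sit below sham in all 4 OA libraries at 12 weeks, and the Utrn groups overlap.

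Of the 9 extracellular ligands of dystroglycan tested at 12 weeks, 7 were lower and 2 higher in OA, without a call in limma. Their median log2 difference was -0.26 beside -0.01 over all genes. In limma 3 had an unadjusted p under 0.05, beside 12.4% of all genes. The list was chosen with earlier results of these data known, so its direction is given only as a description. Agrn, which encodes the proteoglycan agrin, held 2427 to 3602 normalized reads in OA and 3634 to 4566 in sham, and Lama5, a laminin alpha chain, held 2875 to 3789 in OA and 4029 to 4899 in sham. Neither pair of groups overlapped, beside 3.44% of all genes with OA wholly below sham. The log2 differences were -0.42 (SE 0.12, adjusted p = 0.280 in limma) and -0.37 (SE 0.10, adjusted p = 0.278 in limma). At 4 weeks Egflam, which encodes pikachurin, was wholly below sham at 278.0 to 320.0 in OA and 328.7 to 485.1 in sham (-0.38, SE 0.12, adjusted p = 0.511 in limma), beside 0.693% of all genes. Lama1 was lower by 1.85 (SE 0.87) at 4 weeks on 0 to 31 reads per library, with the highest level of 72.0 in the shallowest library. Hspg2 was not analysed here. Endothelial markers were also lower in OA at 12 weeks, where 9 of the 10 tested had a negative log2 difference, with a median of -0.22 and 2 at an unadjusted p under 0.05. Their summed level was 46813 to 57696 normalized reads in OA and 53827 to 76231 in sham at 12 weeks, which overlap. The part of endothelial cells in the levels of the ligands was not tested.

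Among the cytoplasmic partners, 0 of 10 were called in limma at 4 or 12 weeks, with 0 and 2 at an unadjusted p under 0.05. Flnc, the muscle filamin, differed by 0.37 (SE 0.19, adjusted p = 0.648 in limma) at 4 weeks and 0.56 (SE 0.17, adjusted p = 0.307 in limma) at 12 weeks. Ank3, an ankyrin, differed by 0.48 (SE 0.17, adjusted p = 0.334 in limma) at 12 weeks. Nos1, the neuronal nitric oxide synthase, held 14.3 to 52.3 normalized reads in OA and 15.7 to 81.2 in sham at 4 weeks, a wide overlap with a log2 difference of -0.24 (SE 0.44). At 12 weeks it held 18.2 to 48.0 in OA and 11.2 to 38.2 in sham, again with overlap, and the difference of 0.59 (SE 0.42, adjusted p = 0.569 in limma) was the largest of the cytoplasmic partners. Of 15 genes tested that serve the sugar chains of dystroglycan, 11 were higher and 4 lower in OA at 4 weeks and 9 higher and 6 lower at 12 weeks. None was called in limma, with 2 and 0 at an unadjusted p under 0.05, and their median log2 differences were 0.05 and 0.06 beside 0.03 and -0.01 over all genes. Large2, a glycosyltransferase, had the largest difference of these genes at both time points, on 5 to 28 reads per library. It held 5.42 to 19.1 normalized reads in OA and 11.1 to 25.5 in sham at 4 weeks (-0.85, SE 0.35, adjusted p = 0.607 in limma) and 10.2 to 23.6 in OA and 18.05 to 21.6 in sham at 12 weeks (-0.34, SE 0.25, adjusted p = 0.582 in limma), with overlap at both. Dpm3, a subunit of the enzyme that makes dolichol phosphate mannose, differed by 0.33 (SE 0.22) at 4 weeks and -0.23 (SE 0.28) at 12 weeks. Pomk, the kinase that acts on the growing chain, differed by 0.17 (SE 0.08, adjusted p = 0.616 in limma) at 4 weeks, and Pomgnt2, a glycosyltransferase of the same chain, by 0.27 (SE 0.13, adjusted p = 0.431 in limma) at 12 weeks.

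Over time, 2 laminin genes were called in limma among the further genes described here. Of the 9 extracellular ligands tested, 1 was called in sham and 2 in OA, beside 1.41% and 0.937% of all 14732 genes. In sham and in OA, 0 of 5 other subunits, 0 of 10 cytoplasmic partners and 0 of 15 sugar chain genes were called. Lamb1, the laminin beta-1 chain, fell in sham from 171 ± 26.2 CPM (SD, n = 5) at 4 weeks to 109 ± 31.4 (SD, n = 4) at 12 weeks, by 0.75 on the log2 scale (SE 0.15, adjusted p = 0.0145 in limma). It also fell in OA, from 216 ± 24.8 (SD, n = 5) to 130 ± 15.1 (SD, n = 4), by 0.72 (SE 0.15, adjusted p = 0.0234 in limma). In limma the sham call of Lamb1 was lost without sham replicate 1 (adjusted p = 0.0534) or sham replicate 4 (adjusted p = 0.0622) of 12 weeks. Its OA call was lost without any 1 of the OA libraries other than replicate 3 of 4 weeks and replicate 3 of 12 weeks, with an adjusted p of up to 0.0806 in limma. It was also lost in limma with every gene with a read (adjusted p = 0.0555) and with the replicate block (adjusted p = 0.05001). Lama2, the laminin alpha-2 chain of muscle and nerve basement membrane, rose in OA from 42.1 ± 4.76 (SD, n = 5) to 68.0 ± 11.1 (SD, n = 4), by 0.69 (SE 0.13, adjusted p = 0.0155 in limma). Its difference in sham was 0.45 (SE 0.13, adjusted p = 0.0813 in limma). The change of Lama2 over time differed between OA and sham by 0.24 (SE 0.19, adjusted p = 0.956 in limma), so a change particular to OA is not shown. The OA call of Lama2 was lost without OA replicate 1 (adjusted p = 0.0704 in limma) or OA replicate 3 (adjusted p = 0.0603 in limma) of 12 weeks.

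The 9 genes did not vary as a unit between libraries of the same group. The deviation of each gene from its group mean was correlated over the 18 libraries, which takes out the OA to sham difference but leaves shared depth and cell makeup in every point. Of the 36 pairs 26 were positive and 10 had a Pearson's r over 0.5, with a median of 0.29. Dmd and Dtna were the closest pair, at 0.69. Sgcd went with Sgce at 0.62, with Sspn at 0.59 and with Dtna at 0.56, but with Sgcb at -0.35. Without the shallowest library the pair of Sgcd and Sgcb was at -0.08, the median was 0.34 and 26 pairs were again positive.

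Sntb1 went against most of the other genes, at -0.63 with Sgcd and -0.62 with Sgce. The genes whose deviations were most like those of Sntb1, among 14419 others, were the leukocyte tetraspanin Cd53 at 0.94, the lipid droplet gene Plin2 at 0.93 and the leukocyte receptor Cd84 at 0.93. For Dtna they were Nid1, Notch3 and Angpt1 at 0.80 to 0.81, which encode a basement membrane protein, a receptor of mural cells and an angiopoietin. For Sgcd they were Lrp3, Cobl and Pard3 at 0.84 to 0.85. The nearest to Dag1 were Pcdh17, Itga1 and Lrfn3 at 0.86 to 0.87, and the nearest to Dmd were Rnf103, Hdx and Naf1 at 0.86 to 0.91. Sgcb was nearest to Hnrnpa1, Hsf2 and Calu at 0.91, and Sgca to Cyp26b1, Mybpc1 and Fst at 0.84 to 0.87. Sgce was nearest to Klhl3, RGD1565367 and Apbb1 at 0.90, and Sspn to Klf9, Neo1 and Homer1 at 0.84 to 0.86. Each gene's 3 values are the highest of 14419 over 18 libraries. They are high by selection and are given as a description without a test. Notch3 is also a smooth muscle and pericyte marker of the lists, and Mybpc1 a skeletal muscle marker.

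Marker lists of other cell types moved with several genes in the same deviations. Sgce followed the smooth muscle and pericyte markers at 0.79, the endothelial markers at 0.78 and the adipocyte markers at 0.72. Dtna followed the smooth muscle and pericyte markers at 0.78 and the endothelial markers at 0.54. Dag1 followed the endothelial markers at 0.69, the smooth muscle and pericyte markers at 0.65 and the adipocyte markers at 0.52. Sgce, Dtna and Dag1 went against the macrophage markers at -0.68, -0.63 and -0.79. Also below 0 with the macrophage markers were Sspn at -0.50, Dmd at -0.49, Sgcb at -0.44, Sgcd at -0.22 and Sgca at -0.13. Only Sntb1 was above 0. Dmd and Sspn followed the smooth muscle and pericyte markers at 0.55 and 0.50 and the endothelial markers at 0.42 and 0.56. These values do not set 1 cell type apart for these genes. Sgcd followed the smooth muscle and pericyte markers at 0.51, the endothelial markers at 0.49, the skeletal muscle markers at 0.46, the fibroblast markers at 0.44 and the adipocyte markers at 0.42. Without the shallowest library these were 0.43, 0.45, 0.26, 0.55 and 0.33. Sgcb went against the skeletal muscle markers at -0.87, or -0.72 without the shallowest library. Sgca stood at -0.09 with the fibroblast markers, a sum of 13 genes that includes Col1a1. Whether reads of Sgca and Col1a1 are shared was not tested. Sntb1, whose nearest genes included Cd53 and Cd84, stood at only 0.28 with the macrophage markers. It went against the endothelial markers at -0.72, the adipocyte markers at -0.71 and the fibroblast markers at -0.42. The part of these cells in the levels of the complex was not tested.

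**Figure D5:**
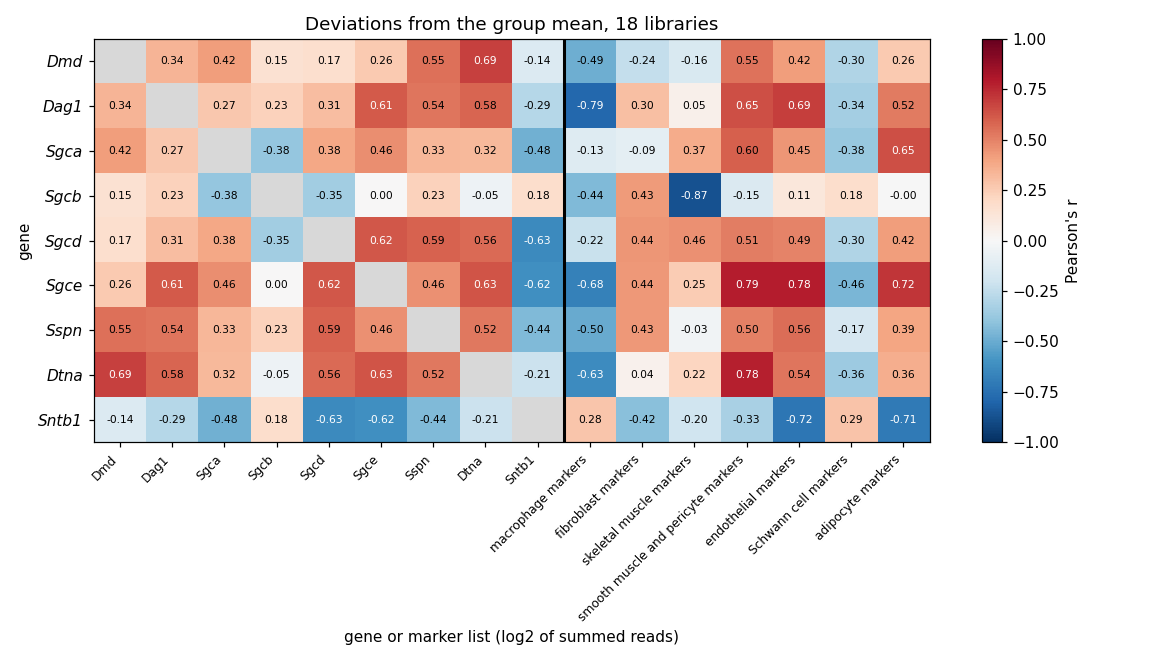
Pearson's r of deviations from the group mean over 18 libraries between the 9 genes (left block) and between each gene and the summed level of 7 marker lists (right block), on a scale from -1 (blue) to 1 (red), with the diagonal in grey. The Sntb1 row is mostly blue among the genes, down to -0.63 with Sgcd. Sgce reaches 0.79 with the smooth muscle and pericyte markers and 0.78 with the endothelial markers.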

How the data were processed

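RNA of CD11b/c-sorted synovial cells was sequenced in 18 libraries, with groups taken from the titles of the samples. The authors ran fastp 0.20.0, aligned to Rnor_6.0 with STAR 2.7.6a, removed duplicates, counted with featureCounts 2.0.0 and divided by DESeq2 1.24.0 size factors. The deposited values per library are these normalized reads (unit: signal). Columns with log2 fold changes, p-values and a score (the Wald statistic) by the authors were not used. At a tolerance of 0.01, 100% of values were whole multiples of 1 read, so read counts were recovered.

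The 9 genes and all lists were chosen with earlier results of these data known. OA was compared with sham in limma 3.58.1 (R 4.3.3, mean-variance trend) with a pseudocount of 1 before taking log2, which understates changes of low genes, with genes of a mean of at least 10 and Benjamini-Hochberg adjustment. Calls needed an absolute log2 difference of 0.5 and an adjusted p under 0.05. Time contrasts used log2 CPM of recovered reads (TMM, prior count 2) in 1 fit of all libraries. DESeq2 1.42.0 and edgeR 4.0.16 were alternatives on recovered reads, beside other pseudocounts, filters and size factors, a replicate block and leaving out each library. Named were the 9 genes, every further gene of the complex called, the 3 with the largest difference of each list and comparison as far as described, and the 3 genes most like each of the 9. Sntb2 and Sntg1 were named after their values were seen. Of 45 further genes of the complex 43 were in the tables, and some genes of the complex are not reported here. Promoter windows were in RefSeq (GRCr8) for 7 of the 9 genes. Statistics were tested on simulated data.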

Additional observations from a re-analysis of the deposited data

Results flagged for a closer look

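Of 36 groups of libraries tested, 4 groups for each of the 9 genes, 1 had a library far from the others. Sgca in OA replicate 4 at 12 weeks was at 60.1 normalized reads, with the nearest OA library at 96.0 and the highest at 100.8. Its gap to the nearest library was 0.88 of the range of the group, above the critical value of 0.829 for 4 libraries (Dixon's test at 95%). Chance flags about 1 in 20 groups.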

How the results depend on the processing

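Counts of calls depended on the tool. DESeq2 called 31 genes for OA against sham at 4 weeks and 100 at 12 weeks, where limma called 0, with 1 of the 9 genes at 12 weeks. Over time DESeq2 called 461 genes in sham, with 2 further genes of the complex, and 294 in OA. With every gene that had a read, limma called 53 genes over time in OA, with 1 further gene of the complex. The replicate numbers did not pair the libraries (9 same-numbered pairs, r of -0.13 to 0.30, 1 over 0.1, 1 library best with its own number). With the replicate block limma called 1 gene at 4 weeks, and 1 further gene of the complex over time in OA. Leaving out each library gave 0 to 1 genes at 4 weeks, 0 to 81 at 12 weeks, 88 to 259 over time in sham and 38 to 137 over time in OA. It gave 0 to 1 of the 9 genes at 12 weeks and over time in sham, counts from which nothing is read because their levels chose the genes. It gave 0 to 2 further genes of the complex over time in sham and in OA.

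Some directions turned. Over time in sham, Dmd was at 0.020 with every gene with a read, Dag1 at -0.0020 with a mean of at least 50 and Sntb1 at -0.0054 with the replicate block. Sntb1 over time in OA was at 0.0039 with a mean of at least 50. Leaving out each library gave -0.52 to 0.054 for Nos1 and -0.10 to 0.013 for Utrn (OA against sham, 4 weeks), and -0.024 to 0.20 for Sgcb, -0.22 to 0.045 for Dmd, -0.0018 to 0.061 for Dag1, -0.068 to 0.20 for Sntb1 and -0.23 to 0.24 for Sntg2 over time in sham. Over time in OA it gave -0.019 to 0.041 for Dag1, -0.067 to 0.064 for Sntb1 and -0.026 to 0.30 for Sntg2. The cause was not tested. Deviations without the shallowest library were added after the data were seen.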
